A study of Mus musculus with 6 samples.

Results

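The genes described here encode the nuclear factors that copy, transcribe and translate the mitochondrial genome. They were chosen by name, 35 in all, and were measured through the probe sets whose annotation names 1 gene. Of the 35 genes, 33 had such a probe set and all 33 passed the filter on low signal, out of 12537 genes tested. Mtrf1, a release factor, and Taco1, a translation activator of a cytochrome oxidase subunit, had no single-gene probe set and were not analysed here. Quadriceps muscle was taken from male mice of the C57/BL6 strain at 8 weeks of age, and RNA was measured on Affymetrix arrays. The 3 control arrays came from wild-type muscle. The other 3 came from mice transgenic for ERRγ, a nuclear receptor encoded by Esrrg, placed under the α-skeletal actin promoter (hSkeletal Actin -ERRg in the labels), a promoter of differentiated muscle fibres. The titles call the arrays of a genotype biological replicates 1 to 3. Founder lines, and how many animals went into each RNA sample, were not stated in the sources used here.

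Mitochondrial DNA encodes a small set of respiratory chain subunits with the rRNAs and tRNAs needed to translate them, and every other protein of the expression machinery is imported. The polymerase gamma complex copies the DNA, and a single-subunit RNA polymerase, Polrmt, transcribes it with Tfam and Tfb2m. The mitochondrial ribosome then translates the messages with its own initiation, elongation and release factors, and with tRNAs charged by synthetases that are for most amino acids distinct from those of the cytosol. In skeletal muscle, slow and oxidative fibres have more mitochondria than fast fibres. ERRs, with the PGC-1 coactivators, and the factors NRF1 and GABP are known activators of nuclear genes for mitochondrial proteins.

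Signals are MAS5 intensities in arbitrary units, and each array had been brought to a trimmed mean of 200. Signals of different probe sets are not on one scale, so that only differences between genotypes are compared here. The median signal was 52.1 to 56.3 in the wild-type arrays and 57.1 to 61.9 in the transgenic arrays. The Esrrg probe set with the highest signal read 71.6, 61 and 24.1 in wild-type muscle and 14427.2, 13807.7 and 12697 in transgenic muscle, while the other 2 Esrrg probe sets did not pass. All 10 skeletal muscle markers tested were above the filter on the mean of the arrays. The precision is limited by the number of arrays, 3 per genotype. A difference is the mean of log2(signal + 16) in transgenic muscle minus that in wild-type muscle, which understates changes of dim probe sets, and a gene passed when limma's adjusted p over all tested probe sets was under 0.05. Where several single-gene probe sets name a gene, its brightest one by mean over the arrays stands for it. These are whole-muscle samples, so that fewer cells of a type and less RNA per cell cannot be told apart.

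Of the 33 genes, 8 were higher in transgenic muscle and none was lower. The 8 were Tfam, Tufm, Gfm1, Hars2, Mrrf, Lrpprc, Fars2 and Lars2, with differences of 0.40 to 0.70 on the log2 scale and signal ratios of 1.33 to 1.64. They make up 24.2% of the 33, where 7.64% of all genes tested were called higher and 5.75% lower. With unadjusted p under 0.05, limma gave 13 higher genes and 0 lower. The share of all genes at that cut was not computed, so these counts have no background beside them. The signals of the genotypes did not overlap in 16 of the 33 genes, or 48.5%, all with transgenic muscle higher, against 18.6% of all genes tested. No gene of the 33 had transgenic signals that were all below the wild-type signals, against 14.7% of all genes. The difference was above 0 in 29 of the 33 genes, or 87.9%, against 53.8% of all genes. The median difference was 0.24, against 0.033 over all genes. Counted by probe set, 11 of the 52 tested were higher and 0 lower, where 6.37% and 5.16% of all probe sets tested were called. The 25 genes that did not pass ran from -0.26 for Ears2 to 0.62 for Sars2.

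The count of 8 rests on all 6 arrays. With any single array left out, between 4 and 7 genes passed, while 4.66% to 8.06% of all genes tested were called higher. The count was 5 on dropping wild-type 1 or transgenic 1, 4 on dropping wild-type 2, transgenic 2 or transgenic 3, and 7 on dropping wild-type 3. When the arrays were scaled to a common median of all probe sets, the median difference over all genes moved to -0.11, that of the 33 genes to 0.096, and 3 of the 33 genes passed. The distance of 0.21 between those medians became 0.20. Under that scaling 4.32% of all genes tested were called higher, against 7.64% in the main fit. Tfam, Tufm and Gfm1 passed under each of the 19 alternative settings tried.

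**Figure D1:**
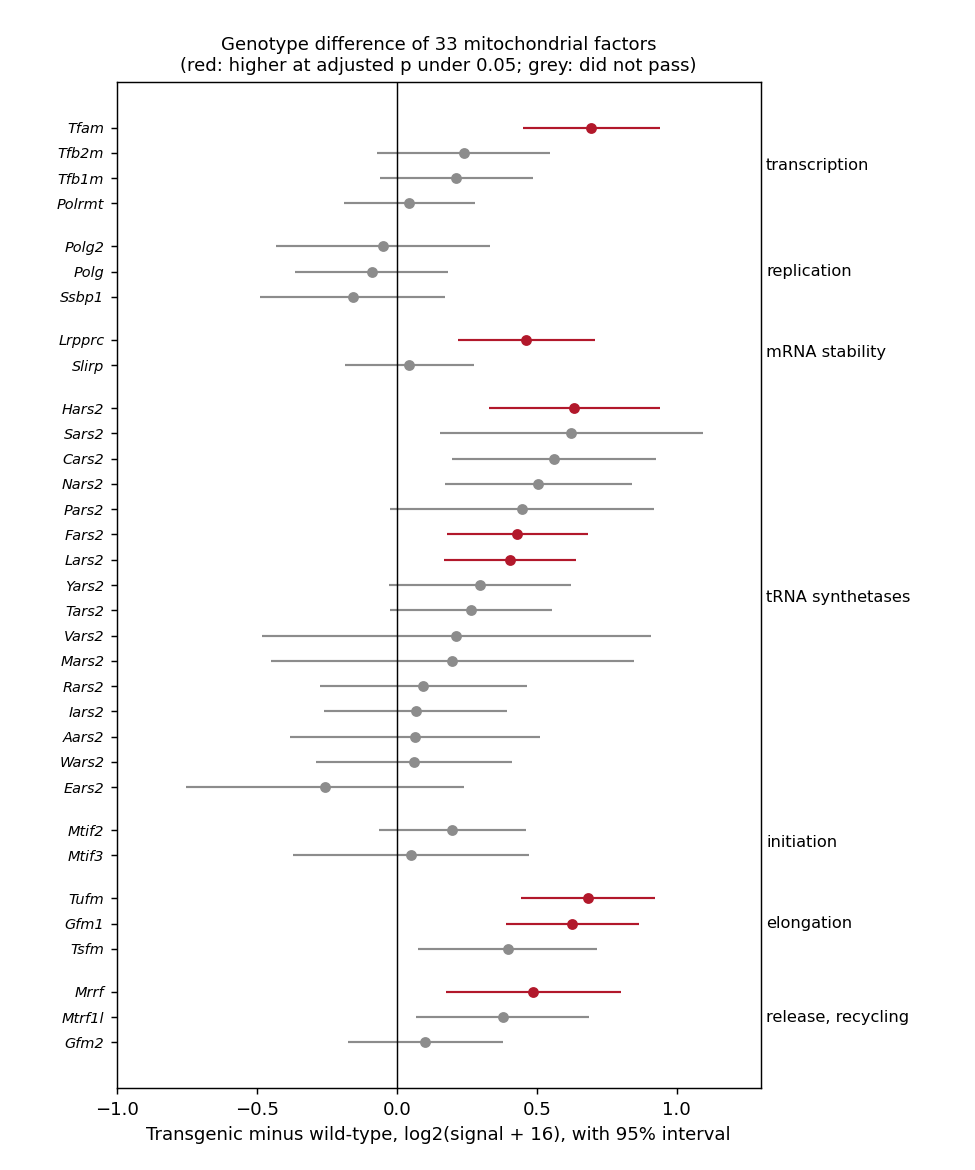
Difference between transgenic and wild-type muscle for each of the 33 genes, on the log2(signal + 16) scale, grouped by role, with 95% intervals. Red points passed at limma's adjusted p under 0.05 and grey points did not. The 8 red points lie between 0.40 and 0.70, and the 3 replication genes lie below 0 with intervals that cover it.

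Tfam was the transcription gene that rose. Tfam is a high-mobility-group protein that packages mitochondrial DNA and bends it at the promoters so that transcription can start. Its signals were 716, 737.3 and 694.2 in wild-type muscle and 1051.8, 1282.2 and 1182.6 in transgenic muscle. The lowest transgenic array was well above the highest wild-type array. The mean went from 716 ± 21.6 to 1172 ± 116 (SD, n = 3 each), a ratio of 1.64, and the log2 difference was 0.70 with a standard error of 0.11 (limma adjusted p = 0.00265). A second Tfam probe set read 223.7, 200.4 and 188.4 in wild-type muscle and 372.6, 340.9 and 360.7 in transgenic muscle. Its groups did not overlap either, and it rose by 0.77 (limma adjusted p = 0.00369).

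The polymerase that Tfam recruits did not pass. Polrmt, the mitochondrial RNA polymerase, read 637.9, 612.3 and 645.1 in wild-type muscle and 627.5, 643.2 and 687.3 in transgenic muscle. The groups overlapped, and the log2 difference was 0.045 with a 95% interval from -0.19 to 0.28 (limma adjusted p = 0.835). Its sign turned to -0.10 with arrays scaled to a common median. A second Polrmt probe set gave 0.15 (limma adjusted p = 0.576). Tfb2m, which melts promoter DNA together with the polymerase, gave 0.24 and overlapping signals. Tfb1m, which dimethylates the rRNA of the small ribosomal subunit, gave 0.21. Its 3 transgenic signals, 358, 354.4 and 330.6, were all above the wild-type signals of 296.4, 277.3 and 320.7, without passing (limma adjusted p = 0.315). The difference of Tfam was not tested against those of the other 3 transcription genes.

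None of the 3 replication genes passed, and all 3 had differences below 0 in the probe set with the highest signal. Polg, the catalytic subunit of the DNA polymerase, read 401.1, 400.5 and 356 in wild-type muscle and 335.8, 387.9 and 361 in transgenic muscle. These overlapped, with a difference of -0.090 and a 95% interval from -0.36 to 0.18 (limma adjusted p = 0.697), an interval whose upper end is under the 0.70 of Tfam. A second Polg probe set with a lower signal read 104.7, 94.1 and 111.8 against 126.9, 131.2 and 124.5. In that probe set the transgenic arrays were all higher, by 0.27, which did not pass (limma adjusted p = 0.332). The mean over both Polg probe sets was 0.088, so that the direction for Polg depends on the probe set used.

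Polg2, the accessory subunit that holds the polymerase on its template, gave -0.051 with a 95% interval from -0.43 to 0.33. Ssbp1, the single-stranded DNA binding protein of the replication fork, read 2489.8, 2564 and 1966.8 in wild-type muscle and 2120.8, 1708 and 2489.5 in transgenic muscle. The arrays of each genotype spread widely and overlapped, and the difference was -0.16 with an interval from -0.49 to 0.17 (limma adjusted p = 0.559). Of the 4 Ssbp1 probe sets tested, the 2 with the highest signal were below 0 and the 2 dim ones above 0, with a mean over the 4 of 0.034.

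Lrpprc and Slirp form a complex that protects mitochondrial mRNAs from decay and keeps them polyadenylated. Lrpprc, the long helical-repeat subunit, read 718, 754.6 and 780.2 in wild-type muscle and 962.3, 1014.5 and 1154.2 in transgenic muscle. The genotypes were separated by a gap wider than the spread of the wild-type arrays. Lrpprc rose by 0.46 with a standard error of 0.11, a ratio of 1.39 (limma adjusted p = 0.022). It no longer passed without wild-type 1 (adjusted p = 0.0936), wild-type 2 (0.0722) or transgenic 3 (0.0724), nor with arrays scaled to a common median (0.158), and was lost in 6 of the 19 alternative settings.

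Slirp, the small RNA-binding partner, read 1504.3, 1452 and 1350.5 in wild-type muscle and 1392.2, 1436.3 and 1621.9 in transgenic muscle. The highest and the lowest of these values came from different genotypes with the rest mixed between them. Its difference was 0.045 with a 95% interval from -0.19 to 0.28 (limma adjusted p = 0.831), and it turned to -0.11 with arrays scaled to a common median. The interval of Lrpprc, from 0.22 to 0.71, and that of Slirp overlap, and the difference between the partners was not tested.

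**Figure D2:**
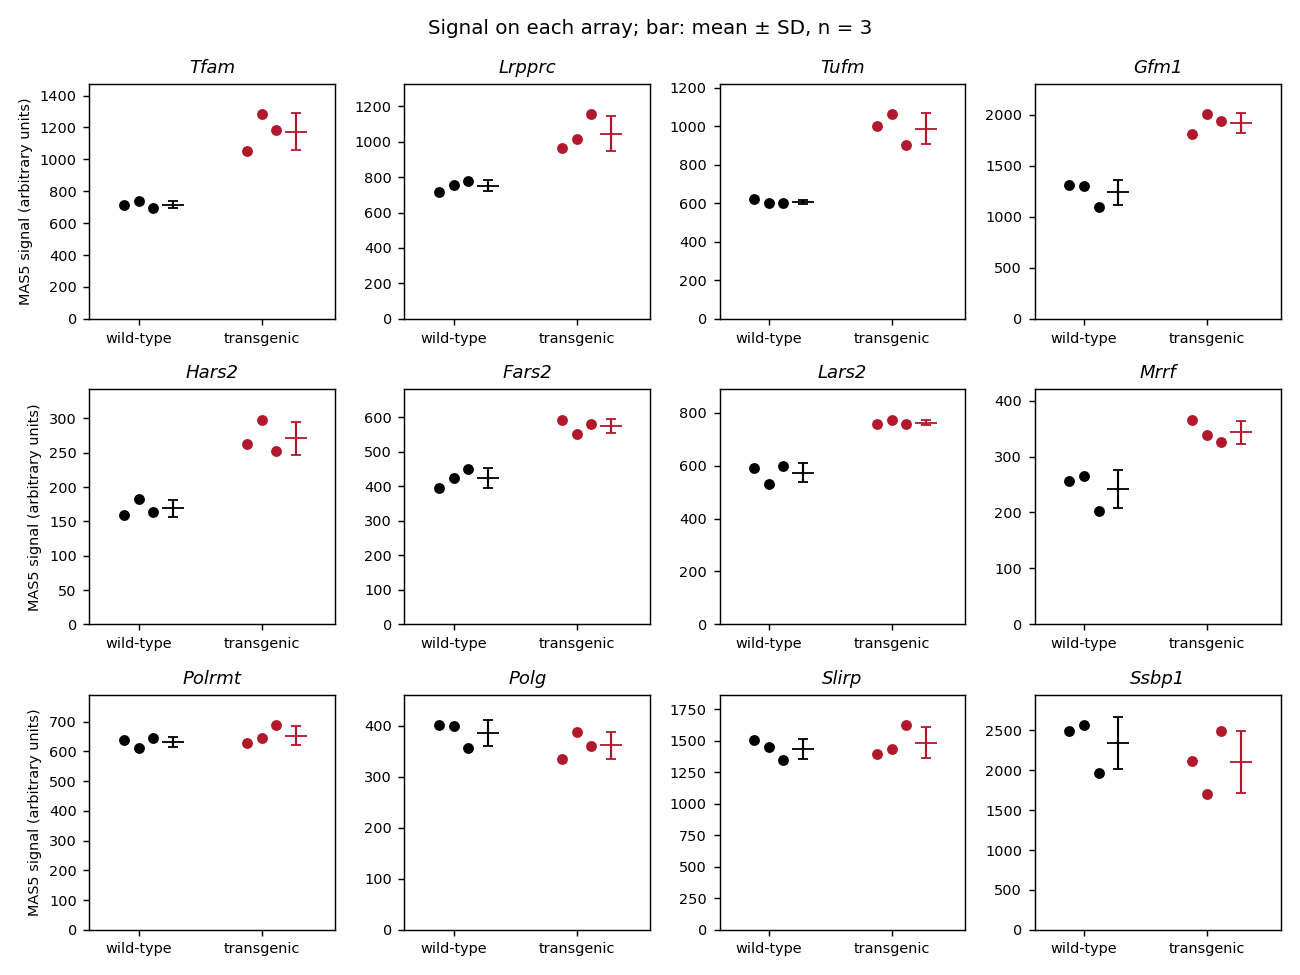
MAS5 signal on each of the 6 arrays for 12 of the genes, with each panel's axis from 0 and the genotype mean as a bar. In Tfam, Tufm and Gfm1 every transgenic point is above every wild-type point, while in Polrmt, Polg, Slirp and Ssbp1 the points of the genotypes overlap.

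Elongation factors included 2 of the 4 genes with the largest differences of the 33. Tufm delivers charged tRNAs to the ribosome. It read 621.2, 601.9 and 603.1 in wild-type muscle and 1002.3, 1062.6 and 900.9 in transgenic muscle. The wild-type arrays were nearly level, and all transgenic arrays were far above them. Tufm rose by 0.68 with a standard error of 0.11, from a mean of 609 ± 10.8 to 989 ± 81.7 (SD, n = 3 each; limma adjusted p = 0.00265). A second tested probe set of Tufm went from 321.5, 251.1 and 204.3 to 360.6, 434.6 and 402.4, without overlap, and rose by 0.61 (limma adjusted p = 0.0387). The other 2 Tufm probe sets were below the filter on low signal.

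Gfm1 moves the ribosome along the message after each peptide bond. Its signals were 1316.2, 1304.6 and 1100.6 in wild-type muscle and 1813, 2004 and 1941.4 in transgenic muscle. The 3 transgenic arrays were all above the wild-type arrays, and Gfm1 rose by 0.63 with a standard error of 0.11 (limma adjusted p = 0.00406). In the second Gfm1 probe set, wild-type signals of 239.3, 286.8 and 238.3 stood against 498.2, 555.6 and 550.8. That was the largest difference of any probe set of the 33 genes, a rise of 1.03 and a signal ratio of 2.10 (limma adjusted p = 0.000686). Tsfm, the exchange factor that recharges Tufm with GTP, read 226.4, 283.7 and 307.9 against 391.1, 353.8 and 340.5. Its genotypes did not overlap, but its difference of 0.40, with an interval from 0.077 to 0.72, did not pass (limma adjusted p = 0.109).

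Among release and recycling factors, Mrrf rose by the narrowest margin of the 8. Mrrf splits the ribosome after termination together with Gfm2. It read 255.9, 265.6 and 202.9 in wild-type muscle and 365.7, 338 and 326.4 in transgenic muscle. The transgenic arrays were all higher, and the difference was 0.49 with a standard error of 0.14 (limma adjusted p = 0.0494). The call for Mrrf was lost whichever array was left out, with adjusted p from 0.0743 without wild-type 2 to 0.151 without transgenic 1, and in 15 of the 19 alternative settings. Gfm2, the GTPase paired with Mrrf, gave 0.10 with overlapping signals. Mtrf1l, the release factor for the standard stop codons, gave 0.38 without overlap (limma adjusted p = 0.114). Neither initiation factor passed. Mtif2, which places the initiator tRNA, gave 0.20, and Mtif3, which keeps the ribosomal subunits apart, gave 0.051, both with overlapping signals.

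The aminoacyl-tRNA synthetases are the largest group, 16 genes that each charge the mitochondrial tRNAs of 1 amino acid. Of the 16, 3 rose, none fell and 13 did not pass, where 7.64% of all genes tested were called higher and 5.75% lower. The median difference was 0.28, against 0.033 over all genes, and Ears2, for glutamate, was the only one below 0. Hars2, for histidine, read 160, 182.2 and 164.2 in wild-type muscle and 263.2, 298 and 252.5 in transgenic muscle. All transgenic arrays were above all wild-type arrays, and Hars2 rose by 0.64 with a standard error of 0.14 (limma adjusted p = 0.0142). Its second probe set was dim, at 59.2, 84.2 and 66.9 against 88.5, 94.4 and 111.2, and its difference of 0.41 did not pass (limma adjusted p = 0.233). The Hars2 call was lost without wild-type 1 (adjusted p = 0.0614) and without transgenic 2 (0.0525), and with arrays scaled to a common median (0.0515).

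Fars2, for phenylalanine, read 394.1, 425.3 and 451.7 in wild-type muscle and 593.2, 552.3 and 582 in transgenic muscle, without overlap. It rose by 0.43 with a standard error of 0.11 (limma adjusted p = 0.0348), while its second probe set gave 0.37 and did not pass (limma adjusted p = 0.282). Lars2, for leucine, read 590.4, 531.7 and 597 against 757.5, 773.2 and 757.5. The transgenic arrays of Lars2 were nearly level, and all were above the wild-type arrays. It rose by 0.40 with a standard error of 0.11 (limma adjusted p = 0.0348). The second tested Lars2 probe set read 196.2, 173.4 and 154.6 against 191.1, 101.9 and 232.6, overlapped, and gave -0.059 (limma adjusted p = 0.912). The mean over both was 0.17 for Lars2, which did not pass (limma adjusted p = 0.471). For both genes the call held without wild-type 3 and was lost without any other single array. Adjusted p was then 0.142, 0.102, 0.112, 0.0596 and 0.0819 for Fars2 without wild-type 1, wild-type 2, transgenic 1, transgenic 2 and transgenic 3. In the same order it was 0.0928, 0.139, 0.0963, 0.0825 and 0.0744 for Lars2. Each of these calls was lost in 11 of the 19 alternative settings, among them a common median (adjusted p = 0.194 for Fars2 and 0.19 for Lars2).

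A further 3 synthetases were close to the threshold with genotypes that did not overlap. Cars2, for cysteine, read 301.1, 207.5 and 220.4 against 311.4, 388.2 and 391.2, a difference of 0.56 (limma adjusted p = 0.0527). The second tested Cars2 probe set gave 0.26, also without overlap (limma adjusted p = 0.301). Nars2, for asparagine, gave 0.51 (limma adjusted p = 0.0561), and Sars2, for serine, gave 0.62 (limma adjusted p = 0.0884). Without wild-type 1, Cars2 (adjusted p = 0.0322) and Sars2 (0.0299) passed. The other 10 that did not pass ran from -0.26 to 0.45, with Aars2, Iars2, Rars2 and Wars2 between 0.061 and 0.095. Second probe sets of some of these genes gave other values, without passing. That of Wars2, for tryptophan, read 118.1, 90.6 and 68.4 against 130.3, 186.7 and 129.8, without overlap, a difference of 0.61 (limma adjusted p = 0.0996). That of Tars2, for threonine, gave 0.47 without overlap (limma adjusted p = 0.0947), where its brighter one gave 0.27. The dim second probe set of Iars2, for isoleucine, gave -0.87 with overlapping signals (limma adjusted p = 0.355). For Vars2, for valine, the probe sets gave 0.21 and -0.15, both overlapping.

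The cytosolic synthetases give a comparison within the same enzyme class, since they charge the tRNAs of nuclear messages. Of 16 cytosolic synthetase genes tested, 2 were higher (12.5%) and 3 lower (18.8%), where 7.64% and 5.75% of all genes tested were. The median difference was -0.18, against 0.033 over all genes. The count of lower genes went to 0 with eBayes without the intensity trend, to 1 without any single array other than wild-type 3, and to 4 with arrays scaled to a common median. Among all genes tested, 721 were lower in the main fit. That count was 325 without the trend, 366 to 583 without those single arrays and 1234 under the common median. The genes that fell were Eprs, for glutamate and proline, Tars, for threonine, and Rars, for arginine. Eprs read 1959.1, 2053.1 and 1446.5 in wild-type muscle and 991.8, 772 and 1145.8 in transgenic muscle, without overlap, and fell by 0.90 (limma adjusted p = 0.00636). All 3 tested Eprs probe sets were lower, and its call was lost under 1 setting, eBayes without the intensity trend (adjusted p = 0.0513). Tars fell by 0.48 (limma adjusted p = 0.0391) and Rars by 0.39 (limma adjusted p = 0.0499). The Rars call was lost whichever array was left out, with adjusted p from 0.0976 to 0.115. The Tars call held without wild-type 3 and was lost without any other array, with adjusted p up to 0.159.

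The cytosolic genes that rose were Hars and Wars, for histidine and tryptophan. Hars read 278.1, 299.1 and 345.7 in wild-type muscle and 528.4, 655.1 and 527.4 in transgenic muscle, a rise of 0.86 without overlap (limma adjusted p = 0.00286). Its second probe set overlapped between genotypes and gave 0.065 (limma adjusted p = 0.825). Hars and Hars2 are immediate neighbours that share 4 bases in the RefSeq annotation of GRCm38.p6, with 0 genes between them. Wars rose by 0.50 (limma adjusted p = 0.0353), its 3 other probe sets did not pass, and the call was lost without 5 of the 6 arrays. Those were the 3 wild-type arrays (adjusted p = 0.132, 0.0733 and 0.0528), transgenic 1 (0.0914) and transgenic 2 (0.108). Gars and Kars, whose single genes supply both compartments, gave -0.17 and -0.15 and did not pass.

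Set side by side for the same amino acid, there were 17 pairs of a mitochondrial and a cytosolic gene, in which Fars2 and Eprs each occur in 2 pairs. The mitochondrial gene had the larger difference in 15 pairs and the smaller in 2, Hars2 with Hars and Wars2 with Wars. In 11 pairs the mitochondrial gene was above 0 and the cytosolic gene below it. The 95% intervals were apart in 5 pairs, all with the mitochondrial gene higher: Pars2 with Eprs, Cars2 with Cars, Tars2 with Tars, Fars2 with Farsb and Nars2 with Nars. Pars2 gave 0.45 against -0.90 for Eprs, and Cars2 gave 0.56 against -0.24 for Cars. For Cars2 with Cars and Fars2 with Farsb, the intervals were not apart in every probe set. That of the second Cars2 probe set, from -0.064 to 0.58, overlapped that of Cars, from -0.51 to 0.026. That of the second Fars2 probe set, from -0.075 to 0.81, overlapped that of Farsb, from -0.50 to 0.021. A dimmer Farsb probe set, from -0.15 to 0.33, overlapped Fars2, from 0.18 to 0.68. The order within some pairs depends on the probe set. The second Wars2 probe set, at 0.61, was above all 4 of Wars, the second Hars probe set, at 0.065, was below both of Hars2, and a dim Farsa probe set, at 1.17, was above both of Fars2. The dim second Iars2 probe set, at -0.87, was below both of Iars. The differences between paired genes were not tested.

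**Figure D3:**
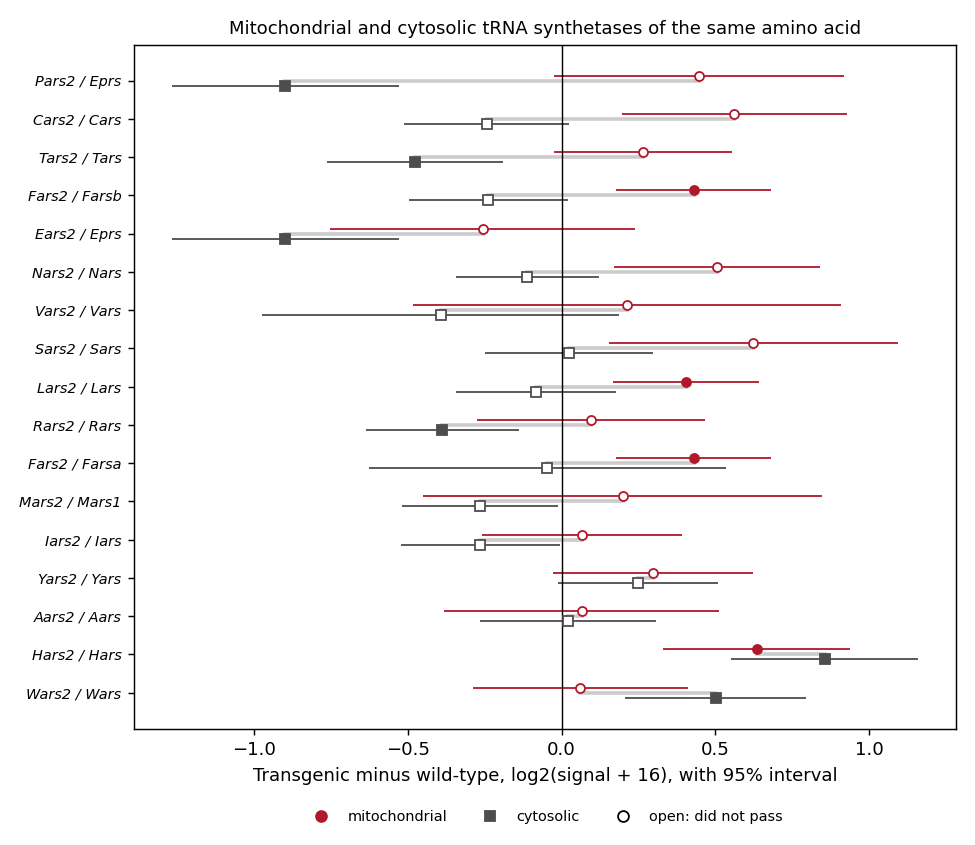
Differences between transgenic and wild-type muscle, on the log2(signal + 16) scale with 95% intervals, for the mitochondrial (circles) and cytosolic (squares) synthetase of the same amino acid; filled symbols passed at limma's adjusted p under 0.05. The circle is to the right of the square in 15 of 17 pairs, and Eprs, Tars and Rars are the filled squares below 0.

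Promoter windows were read to show what sequence the genes share beside their role. The windows run from 250 bases before to 50 after the start of each gene, from RefSeq on GRCm38.p6, and were found for 30 of the 33 genes. Hars2, which rose, and Mtif3 and Pars2, which did not pass, had no window. Where several starts of a gene were listed, the first was used. The letters CCGGAAG, a motif of the ETS family to which GABP belongs, were in 13 of 30 windows on either strand (43.3%), against 9.12% of 27025 windows in the table. They were in 3 of the 7 windows of genes that rose (42.9%) and in 10 of the 23 others (43.5%). The ERR element core AAGGTCA was in 2 of the 30 (6.67%), against 4.66% of all windows. Its extended form TCAAGGTCA, which contains the core, was in 1 of the 30 (3.33%), against 0.407%. The NRF1 motif, GCGCA and GCGC with any 1 base between them, was in 4 (13.3%), against 4.78%, and in none of the 7 windows of genes that rose. The median GC content was 59.2% in the 30 windows and 52.7% in all, and the shares were not compared at equal GC content. The 27025 windows were also not limited to genes tested here, while the 30 were. The motifs were picked as known binding sequences of regulators named above.

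The 3 genes with the smallest adjusted p among those that rose and held a motif were Tfam, Tufm and Gfm1, and their windows show where the motifs lie at the start site. Each sequence runs 5′ to 3′ on the gene's strand from 100 bases before the start, with the matches in capitals. Tfam is at chr10:71238045-71238144 on the minus strand, Tufm at chr7:126487255-126487359 on the plus strand and Gfm1 at chr3:67430015-67430120 on the plus strand.
Tfam: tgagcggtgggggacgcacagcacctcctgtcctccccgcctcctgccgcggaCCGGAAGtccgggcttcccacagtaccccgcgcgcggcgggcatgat
Tufm: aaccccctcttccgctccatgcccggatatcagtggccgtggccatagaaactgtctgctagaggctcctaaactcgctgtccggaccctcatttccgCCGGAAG
Gfm1: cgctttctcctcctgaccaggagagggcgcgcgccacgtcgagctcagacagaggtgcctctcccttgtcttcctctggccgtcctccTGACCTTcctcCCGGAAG
In Tufm and Gfm1 the ETS letters span the start itself, and in Tfam they lie upstream. Gfm1 also holds the ERR core, in reverse orientation as TGACCTT, just upstream of its ETS letters. A match in such a window is a description of sequence, and binding was not measured here.

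Windows of genes that did not pass were chosen after their values were seen, to set beside these. Mtrf1l holds the only extended ERR element of the 30, at chr10:5823944-5824161 on the minus strand, and gave the difference of 0.38 that did not pass. Polg, at chr7:79466274-79466373 on the minus strand, holds CCGGAAG upstream of its start, as Tfam does. Slirp, at chr12:87443740-87443895 on the plus strand, holds the ETS letters at 3 places, more than any other of the 30 windows.
Mtrf1l: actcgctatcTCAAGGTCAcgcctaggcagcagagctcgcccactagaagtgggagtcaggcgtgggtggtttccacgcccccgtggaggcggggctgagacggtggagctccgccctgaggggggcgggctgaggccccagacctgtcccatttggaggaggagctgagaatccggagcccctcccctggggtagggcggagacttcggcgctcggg
Polg: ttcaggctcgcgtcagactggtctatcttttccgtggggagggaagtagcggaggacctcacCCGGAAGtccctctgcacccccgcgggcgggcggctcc
Slirp: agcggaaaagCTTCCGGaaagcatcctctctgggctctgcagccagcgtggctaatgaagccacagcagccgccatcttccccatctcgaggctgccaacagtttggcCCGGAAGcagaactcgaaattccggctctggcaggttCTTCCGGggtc
The differences of Polg and Slirp were -0.090 and 0.045. Whether any of these letters bear on expression was not tested.

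A wider list of 78 other factors for mitochondrial DNA, RNA and translation had 76 genes tested. Of these, 15 were higher (19.7%) and 2 lower (2.63%), where 7.64% and 5.75% of all genes tested were. The median difference was 0.15, against 0.033 over all genes. By role, 4 of 16 genes for DNA maintenance and nucleotide supply rose, as did 6 of 24 for transcription termination, RNA processing and decay. A single gene rose among 10 for tRNA maturation and among 14 for ribosome assembly, and 3 rose among 12 for initiation, charging, rescue and insertion. Without transgenic 2, 8 of the 76 genes were higher, and without wild-type 2, 9 were. The shares of all genes called higher were then 4.88% and 5.12%.

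Among RNA factors, Mterf2, a termination-factor family protein that binds mitochondrial DNA, had the largest rise. It read 415.4, 346.6 and 358.6 in wild-type muscle and 853.5, 765 and 940.6 in transgenic muscle. Every transgenic array was far above every wild-type array, a rise of 1.16 with a ratio of 2.28 (limma adjusted p = 0.000305). Supv3l1, the helicase of the mitochondrial RNA degradosome, read 321, 361.5 and 348.6 against 636.2, 807.2 and 711.4. It rose by 1.02 without overlap (limma adjusted p = 0.000653), while its second probe set overlapped and gave 0.078 (limma adjusted p = 0.875). Mrm1, a methyltransferase of the large-subunit rRNA, rose by 0.83 (limma adjusted p = 0.00349). Metap1d, which removes the initiator methionine, rose by 0.72 (limma adjusted p = 0.00474).

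Genes of DNA maintenance moved in both directions. Atad3a, a membrane ATPase associated with nucleoids, read 566.2, 717.1 and 929.6 in wild-type muscle and 1389.7, 1325.1 and 1224 in transgenic muscle. Its transgenic arrays were all higher, it rose by 0.84 (limma adjusted p = 0.00705), and 3 of its 4 probe sets passed. Exog, a mitochondrial nuclease, rose by 0.92 at low signal (limma adjusted p = 0.044), but its second probe set gave -0.22. The Exog call held without wild-type 1 and was lost without any other single array, with adjusted p from 0.0636 to 0.139. Fbxl4, a mitochondrial F-box protein whose loss depletes mitochondrial DNA, read 716.4, 582.1 and 637.6 against 384, 405 and 347.6. It fell by 0.74 without overlap (limma adjusted p = 0.00366).

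Mss51, a muscle gene named for a yeast activator of mitochondrial translation, had the largest difference of the list. It read 1351.1, 1035.8 and 427.4 in wild-type muscle and 218.5, 134.5 and 83.4 in transgenic muscle. Wild-type 3 was the lowest of its group, and still about as far above the highest transgenic array as that array was above 0. Mss51 fell by 2.50 with a standard error of 0.39 (limma adjusted p = 0.00239), with differences from -2.98 to -2.17 when single arrays were left out.

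**Figure D4:**
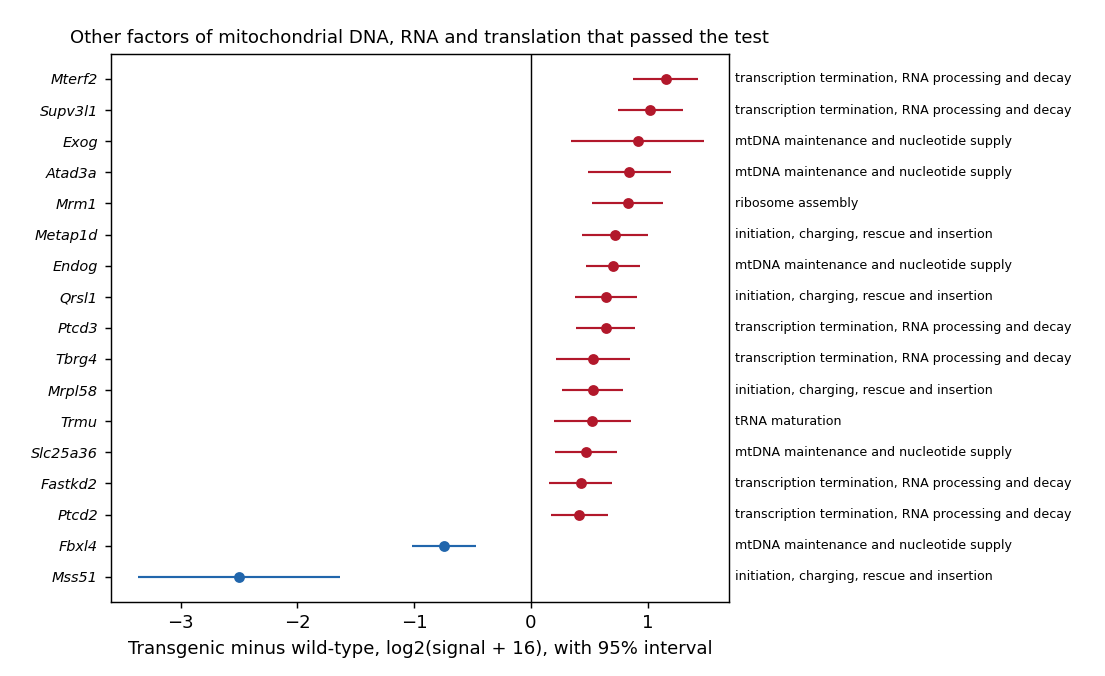
Differences between transgenic and wild-type muscle, on the log2(signal + 16) scale with 95% intervals, for the 17 genes of the wider list that passed at limma's adjusted p under 0.05. Mss51 at -2.50 and Fbxl4 at -0.74 are below 0, and the other 15 are above it.

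Of the 10 regulators of nuclear mitochondrial genes tested, 1 rose (10%) and none fell by its brightest probe set. Over all genes tested, 7.64% were called higher and 5.75% lower. Ppargc1b, the coactivator PGC-1β, read 445.1, 477.4 and 495.2 in wild-type muscle and 1170.4, 896.4 and 751.8 in transgenic muscle. Its transgenic arrays spread widely but were all above the wild-type arrays, a rise of 0.95 (limma adjusted p = 0.00305). Ppargc1a, the related PGC-1α, read 631.9, 860.2 and 711.1 against 658.8, 814.6 and 720.1. Its genotypes overlapped, with a 95% interval of the difference from -0.31 to 0.30 (limma adjusted p = 0.999). Esrra, encoding the receptor ERRα, gave 0.27, Nrf1 gave 0.49 and Gabpa, the DNA-binding subunit of GABP, gave 0.13 (limma adjusted p = 0.458, 0.175 and 0.635). Under the common median of all probe sets, Gabpa turned to -0.019. Yy1, another regulator, gave -0.39 in its brightest probe set and -0.39 in the next. Neither Yy1 probe set overlapped between genotypes, and neither passed (limma adjusted p = 0.0667 and 0.0652). Dimmer probe sets of 2 other regulators passed where the brightest did not. For Esrrb, encoding the receptor ERRβ, 1 probe set rose by 1.44 (limma adjusted p = 0.0143), and the brightest gave 1.05 (limma adjusted p = 0.0568). For Nrip1, a corepressor of nuclear receptors, 2 probe sets rose, by 0.70 and 0.80 (limma adjusted p = 0.0327 and 0.009), and the brightest gave 0.41 (limma adjusted p = 0.126). Of the transcripts encoded by mitochondrial DNA, ND5, a complex I subunit, was the one with a probe set. It read 19911.8, 17689.2 and 15300.9 against 19976, 21771.5 and 18347.3, overlapped, and gave 0.19 with an interval from -0.059 to 0.44 (limma adjusted p = 0.327).

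Markers of some other fibre and cell types moved with the genotype. Over all genes tested, 7.64% were called higher and 5.75% lower. Of the 10 skeletal muscle markers, Mb was the one that was higher. Mb, the oxygen-binding myoglobin of oxidative fibres, read 5883.5, 8860 and 6056.4 in wild-type muscle and 18626.8, 20048.9 and 17484.4 in transgenic muscle, a rise of 1.45 without overlap (limma adjusted p = 0.000179). Of 10 slow fibre markers, 5 were higher. The summed signal of the 10 ran from 1436.6 to 1729.6 in wild-type muscle and from 3297.7 to 10368.5 in transgenic muscle, highest in transgenic 3. Since probe sets are not on one scale, each sum here leans on its brightest ones. In the slow fibre sum of wild-type muscle that was Atp2a2, at a mean of 790, which did not pass. Of 9 endothelial markers, 5 were higher, with sums of 2473.6 to 2890.7 and 4342.5 to 4844. Of 6 pericyte and smooth muscle markers, 1 was higher, with sums of 7302.5 to 8835.1 and 11639.3 to 13263.1. Of 6 leukocyte markers, 1 was lower, with sums of 2494.8 to 2782.8 and 1706.3 to 2246. None of 6 adipocyte markers passed, but wild-type 3 stood apart at a sum of 28015.1, against 11516.2 for the lowest wild-type array and 12727.2 to 17484 in transgenic muscle. None of 6 fibroblast markers and none of 3 nerve and Schwann cell markers passed. Fibroblast sums were 29490.4 to 35274.8 in wild-type muscle and 28624.7 to 29018.6 in transgenic muscle. Nerve and Schwann cell sums were 534.5 to 592.7 and 559.4 to 778.7. No marker was at 0 on all arrays. Without wild-type 3 and transgenic 3 together, 4 of the 33 genes rose, Tfam, Tufm, Gfm1 and Hars2. In that comparison, chosen after the data were seen, 6.72% of all genes tested were called higher. With 2 arrays against 2 it cannot tell fewer arrays from a change in composition. The part of these cell and fibre types in the differences of the 33 genes was not tested.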

How the data were processed

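Affymetrix arrays measured total RNA of quadriceps, extracted with Trizol and labelled as biotinylated cRNA, per the labels' protocols. The authors deposited signal intensity on a linear scale, computed with MAS5 per the submitters' processing notes, with the version and settings not given in the sources used here. No detection call or scanner file was used. Of 45101 probe sets, 64 controls were left out, and 27018 with a mean signal above the 40th percentile (37.7) were tested. The platform annotation gives 1 symbol for 34945 probe sets, several for 932 and none for 9160. Of the single-gene ones, 34741 matched the NCBI table by Entrez identifier.

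Signals were taken as log2(signal + 16) and fitted in R 4.3.3 by lmFit and a trended eBayes of limma 3.58.1. Two-sided p-values were adjusted by Benjamini-Hochberg across every tested probe set. P-values measure the spread between the samples that the titles call biological replicates. For 3 arrays against 3, an exact permutation test of 1 gene could not go below 0.1 and was not used. Motifs were searched by exact letters on both strands. The members, lists, motifs and tests were chosen with earlier results of these data known.

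Named with values are members that passed or have probe sets on both sides of the threshold, Tfam, Polg, Polrmt, Tufm and Lrpprc, the 8 largest differences among other factors that passed, cytosolic synthetases that passed, and regulators that passed or are well known. Others were named after their values were seen. The correlation of deviations was -0.077 to 0.070 for same-numbered arrays and -0.09 to 0.106 for the others. Same-numbered arrays thus shared no strong deviation, but with 3 arrays per genotype these values cannot exclude a pairing. The titles do not say whether the numbers pair samples. Plots used matplotlib 3.10.9 in Python 3.11.15.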

Additional observations from a re-analysis of the deposited data

How the results depend on the processing

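Of the 33 genes, 8 were higher, and 3 were with arrays scaled to a common median, 5 with a common median of the tested probe sets (chosen after seeing the data), 4 by eBayes without the intensity trend, 5 with the replicate block, 4 in the comparison of 2 arrays against 2 (chosen after seeing the data), and 4 to 7 with single arrays left out. It was 10 of 31 with the filter at the 60th percentile, 9 with robust eBayes, and 7 or 8 in the other settings. The share of all genes called higher moved as well, from 7.64% to 4.32% and 5.92% under the 2 median scalings. It was 3.96% without the trend, 6.83% with the block, 6.72% for 2 against 2 and 4.66% to 8.06% without single arrays. With the 60th percentile it was 10.8%, with robust eBayes 7.91%, and in the other settings 3.97% to 8.78%. None was lower under any of the 19 alternatives. The titles do not say that the replicate numbers pair samples, so the block is a check only. The median of 0.24 became 0.096 and 0.18 under the 2 median scalings and 0.23 to 0.33 without single arrays. Other factors higher went from 15 to 8 and 9 under those scalings, 7 without the trend and 8 to 14 without single arrays. Cytosolic synthetases higher went from 2 to 1 under both scalings, without the trend and with the mean over probe sets, and 1 to 2 without single arrays. Cytosolic synthetases lower went from 3 to 0 without the trend, 1 with quantile normalization or no filter, 4 under the common median, and 1 to 2 without single arrays. All changed probe sets went from 3115 to 1580 without the trend and 1709 to 3300 without single arrays. The higher share of calls, 55.2% (1721 higher, 1394 lower), was 28.9% (973, 2399) and 43.3% (1354, 1773) under the 2 scalings.

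Signs turned only in genes that did not pass. Under the common median this held for Aars2 (-0.071), Gfm2 (-0.048), Iars2 (-0.082), Mtif3 (-0.089), Polrmt (-0.10), Rars2 (-0.050), Slirp (-0.11), Wars2 (-0.077) and Gabpa (-0.019), and under the median of tested probe sets for Mtif3 (-0.0044), Polrmt (-0.015) and Slirp (-0.016). The mean over probe sets turned Iars2 (-0.40), Polg (0.088) and Ssbp1 (0.034), quantile normalization turned Ppargc1a (0.029), and 2 arrays against 2 turned Mars2 (-0.012), Polg2 (0.0015), Slirp (-0.063) and Vars2 (-0.13). With single arrays left out, values ran across 0 for Aars2 (-0.12 to 0.17), Iars2 (-0.041 to 0.22), Mtif3 (-0.095 to 0.24), Polg2 (-0.19 to 0.031), Ppargc1a (-0.10 to 0.12), Rars2 (-0.071 to 0.23), Slirp (-0.020 to 0.089) and Wars2 (-0.042 to 0.13). The causes were not tested. With no detection calls, dim probe sets have no measured background.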
